A study of Mus musculus with 8 samples.

Results

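Pax1, Prrx1, Tbx18, Scx and Mef2c are transcription factor genes of the sclerotome, its mesenchyme and the tendon lineage, and their measurement in Sox9-expressing vertebral cells is described here. Their probes were found by the NCBI gene number carried in the probe names (18503 for Pax1, 20289 for Scx, 17260 for Mef2c, 18933 for Prrx1 and 76365 for Tbx18), which gave 6 probes for 5 genes out of 46634 probes and 7111 genes with a named probe. Prrx1 has 2 probes, called its brighter (4480390) and dimmer (4120193) probe by their WT intensity, and each other gene has 1 (3360253 for Pax1, 130066 for Scx, 780338 for Mef2c, 780736 for Tbx18). All 6 were among the 21002 probes kept as detected on at least 3 of the 8 arrays. The 3 probes of Prrx1 and Tbx18 passed through the WT arrays alone.

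The arrays measured total RNA of EGFP-positive cells sorted by flow cytometry from the vertebral column of C57BL/6J;129 mouse embryos at E12.5, with 4 arrays labelled Sox9 WT and 4 labelled Sox9 HOMO. In both groups EGFP stood under the control of the Sox9 locus. WT embryos were heterozygous for an allele with EGFP joined through an IRES to the end of a Sox9 gene that was left intact. In HOMO cells EGFP took the place of Sox9, and the embryos were chimaeras, because embryos homozygous throughout do not live to E12.5. The origin from chimaeras therefore cannot be told apart from the genotype. The study's methods call the 4 arrays of a group biological replicates. The number of embryos behind each is not given in the sources used here.

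Sox9 directs the condensation of mesenchyme into cartilage. The vertebral cells that use it come from the sclerotome, the ventral part of the somite, which forms under hedgehog signals from the notochord and floor plate. Pax1 is a paired-box factor switched on in the ventral sclerotome by those signals, and Tbx18 is a T-box factor of the anterior part of each somite segment. Prrx1 is a paired-type homeobox factor of loose mesenchyme. Scx (scleraxis) is a basic helix-loop-helix factor that marks tendon progenitors, which arise beside the muscle-forming part of the somite, and Mef2c is a MADS-box factor of muscle and of chondrocytes that mature towards hypertrophy.

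The HOMO arrays were far dimmer as a whole. Mean intensity over all probes lay between 285.2 and 364.2 on the WT arrays and between 5.21 and 10.5 on the HOMO arrays, a 41.7-fold difference of the group means, and the share of probes detected was 43.7% to 45.7% on WT arrays and 15.5% to 20.2% on HOMO arrays. Every HOMO array was dimmer than every WT array, so overall signal cannot be told apart from genotype. In bulk RNA, fewer cells of a type and less RNA per cell cannot be told apart either. Col2a1, the main cartilage collagen, was bright in WT (6862.5 to 10041.7 on its probe with the higher mean level) and read 17.4 to 64.4 in HOMO. For these reasons each factor is given first as it was read on each array, then by its rank within the array, then as a difference between groups under several scalings.

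SOX proteins recognise a short core motif, written here as ACAANG. RefSeq promoter sequences (build GRCm38.p6, 250 bases before to 50 after each start) held 6 start sites of 4 of the 5 genes, and Scx is named only. The motif was searched on both strands and was found at 3 of these 6 starts, 1 of Tbx18 and 2 of the 3 of Mef2c, and at none of those of Pax1 and Prrx1. Of all 32851 promoters in the table, 41.2% hold it. The windows of 30 bases that carry it are shown because Sox9 is the factor removed. They are written 5′ to 3′ along the gene, with the 6 bases of the match in capitals.
Tbx18, chr9:87731376-87731405, minus strand, motif on the opposite strand, 133 bases before the start: gagattttccgaCCTTGTaaggaagtgggc
Mef2c, chr13:83504052-83504081, plus strand, motif on the gene's strand, 30 bases after its start: ttgccagcactgACAAAGgtctggttgtca
Mef2c, chr13:83573441-83573470, plus strand, another start, motif on the opposite strand, 154 bases before it: tctccctacttgCTTTGTtacaagtatttt
A match is a run of letters and was not tested as a binding site. The probe names do not say which start site of Mef2c the measured transcripts used.

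Pax1 was detected on all 8 arrays. Its background-subtracted intensity was 2555.5, 2500.3, 2378.2 and 2759.3 on WT arrays 1 to 4 and 238.3, 181.7, 151.6 and 218.8 on HOMO arrays 1 to 4. The groups did not overlap, and the WT mean of 2548 ± 159 (SD, n = 4) stood 12.9-fold above the HOMO mean of 197.6 ± 38.6 (SD, n = 4). This is a smaller gap than the 41.7-fold gap of the arrays as a whole, as were the gaps of Scx and Mef2c given below. How many probes detected on every array have a smaller gap was not worked out. Within its array, Pax1 was probe number 1257, 1466, 1117 and 1087 from the brightest in WT, and number 302, 226, 213 and 286 in HOMO. Its percentile rank was thus higher on each HOMO array (99.35 to 99.54) than on any WT array (96.86 to 97.67).

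Scx, the tendon progenitor factor, was also detected on all 8 arrays. Intensities were 726.4, 689.8, 860.9 and 1101.2 in WT and 43.9, 43.5, 27.6 and 39.1 in HOMO. The means were 844.6 ± 186 (SD, n = 4) and 38.5 ± 7.60 (SD, n = 4), a 21.9-fold gap. WT arrays 3 and 4 were the brighter ones for Scx, and HOMO array 3 was the dimmest of its group, as it was over all probes. Scx ranked at percentiles 89.57 to 93.74 in WT and 96.17 to 97.73 in HOMO, again with no overlap.

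Mef2c was detected on all 8 arrays, though close to the limit in HOMO. Intensities were 528.6, 418.0, 434.8 and 493.9 in WT and 21.4, 19.5, 17 and 22.2 in HOMO. The lowest intensity of any detected probe was 7.9 to 9.0 on the HOMO arrays, and the noise of a dim probe there had an SD of 3.95 to 4.8. The Mef2c means, 468.8 ± 51.5 and 20.03 ± 2.31 (SD, n = 4 each), were 23.4-fold apart. Its percentile rank was 85.61 to 88.39 in WT and 92.20 to 93.65 in HOMO.

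Prrx1 was detected on every WT array by both probes and on no HOMO array by either. The brighter probe read 405.5, 293.7, 347.7 and 388.2 in WT and 6.8, -0.2, 3.8 and 4.0 in HOMO, where its detection values (1 minus the detection p) were 0.894, 0.517, 0.826 and 0.841, all below the 0.95 needed. The dimmer probe read 314.3, 250.4, 305.3 and 354.1 in WT and 0.7, 2.8, 5.0 and 4.7 in HOMO, with detection values of 0.598, 0.757, 0.867 and 0.867. The 2 probes moved together over the WT arrays, with a ratio of 1.1 to 1.29 on each and WT array 2 the lowest for both. In HOMO they did not share an order: array 1 was the highest for the brighter probe and the lowest for the dimmer one, with all 8 values under the detection limit.

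Ranks of Prrx1 fell outside the WT range on each HOMO array. The brighter probe ranked at percentiles 82.69 to 86.53 in WT and 43.55 to 74.97 in HOMO, and the dimmer probe at 81.29 to 85.53 and 47.02 to 76.05. All 8 HOMO values lay under the detection limit, so the size of this difference was not measured.

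Tbx18 read 92.0, 126.2, 78.7 and 72.8 in WT and was detected on each WT array. In HOMO it read 0.6, 1.4, -1.5 and 2.1, with detection values of 0.594, 0.650, 0.403 and 0.742, and was detected on none. Its percentile rank was 71.34 to 75.31 in WT and 32.49 to 58.10 in HOMO. WT array 2 was the brightest for Tbx18 and the dimmest for Prrx1.

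**Figure D1:**
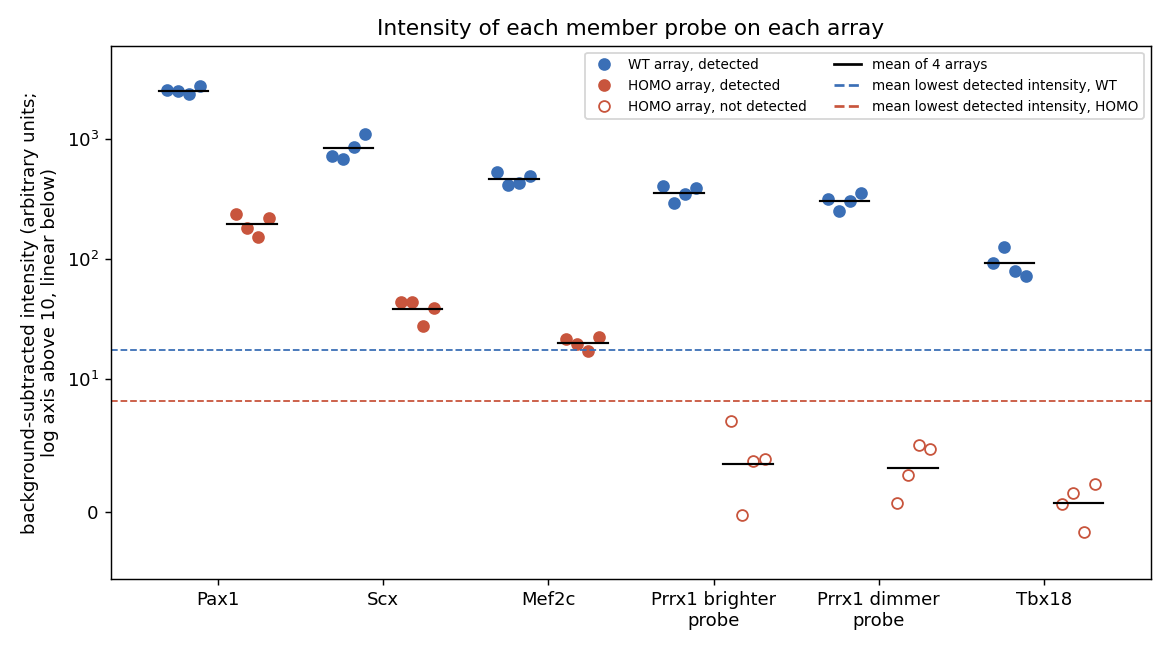
Background-subtracted intensity (arbitrary units, logarithmic above 10 and linear below) of the 6 probes on each WT and HOMO array. Points are arrays, open where the probe was not detected, bars are means of 4 arrays, and dashed lines are the mean of the lowest detected intensity in each group (17.6 in WT, 8.35 in HOMO). Pax1, Scx and Mef2c stay above the HOMO line on all 4 HOMO arrays, while Prrx1 and Tbx18 lie below it.

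Ranks within an array need no scaling between arrays. The change in percentile rank (HOMO minus WT) was +2.09 for Pax1, +5.09 for Scx and +5.53 for Mef2c. The groups of 4 did not overlap for any of these 3, so that each had an exact permutation p of 0.0286 (two-sided, 70 assignments), the smallest this design allows. All 3 belong to the 5101 probes detected on all 8 arrays, a selection that favours a rise in rank where fewer probes are detected. The share of those probes with such a rise was not worked out, but 56.8% of them were called higher by limma. The HOMO ranks of both Prrx1 probes and of Tbx18 all lay below their WT ranks, but these probes were undetected there and had been kept through the WT arrays alone, so no size or test is given for their ranks. Among all kept probes, 23.6% had every HOMO array ranked above every WT array and 46.2% had every HOMO array ranked below, so a rank shift without overlap was common in these data. Likewise, of the 18627 kept probes detected on all 4 WT arrays, 51.1% were detected on no HOMO array, as Prrx1 and Tbx18 were.

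**Figure D2:**
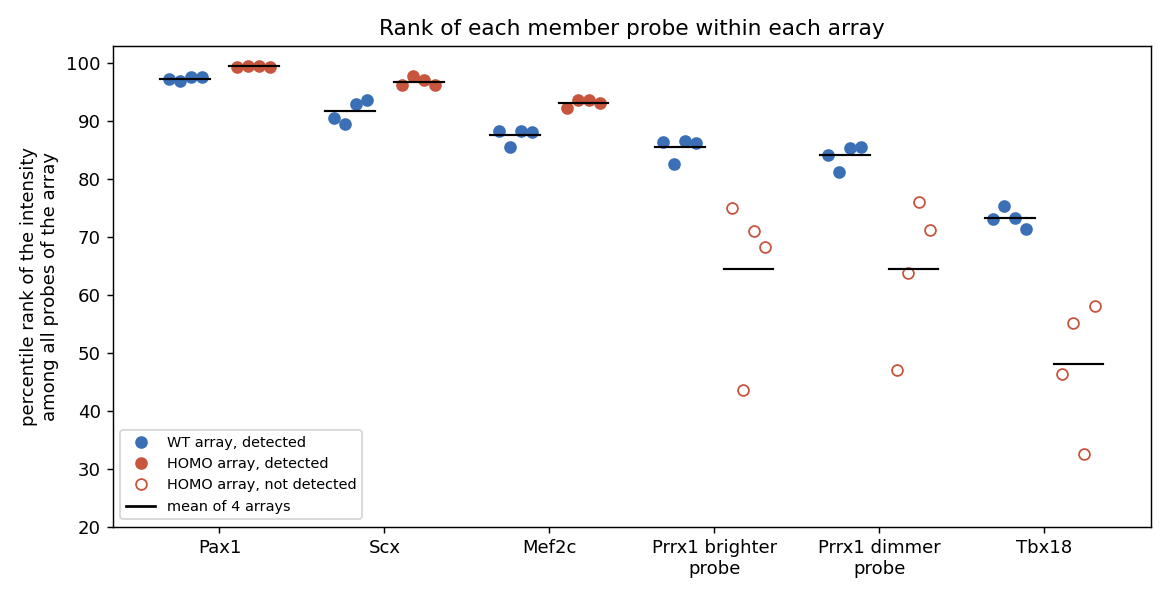
Percentile rank of the intensity of each probe among all probes of its array, where 100 is the brightest. Points are arrays, open where not detected, and bars are means of 4 arrays. Pax1, Scx and Mef2c rank higher on all HOMO arrays than on any WT array, and both Prrx1 probes and Tbx18 rank lower.

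The comparison of HOMO with WT asked how transcripts of these cells depend on Sox9. After background correction and quantile normalization, which gives all arrays the same spread of values, levels are on a log2 scale. Pax1 had levels of 10.32, 10.15, 10.46 and 10.49 on the WT arrays and 11.96, 12.30, 12.37 and 12.04 on the HOMO arrays, a difference of +1.81 (SE 0.15, adjusted p = 8.61e-06, limma with Benjamini-Hochberg adjustment over all kept probes). Scx had 8.56, 8.35, 9.05 and 9.21 in WT and 9.90, 10.51, 10.28 and 9.92 in HOMO, a difference of +1.36 (SE 0.24, adjusted p = 9.00e-04). Mef2c had 8.13, 7.66, 8.11 and 8.09 in WT and 8.88, 9.19, 9.19 and 9.06 in HOMO, a difference of +1.08 (SE 0.15, adjusted p = 2.66e-04). None of these 3 overlapped between groups, and all 3 were called higher on this scale, with the direction reversed under the other scalings given below.

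Prrx1 and Tbx18 were called lower, in a comparison that they entered only because they were detected in WT. No p is given for the brighter and dimmer Prrx1 probes. They passed the filter through the WT arrays alone and were undetected on every HOMO array, which favours a lower call. Because neither gene was detected in HOMO, a fold is given only as a bound against the lowest normalized level of a detected probe on each HOMO array, which averaged 7.09. Prrx1 was at least 1.47-fold lower by its brighter probe and at least 1.28-fold lower by its dimmer probe. These bounds compare group means of the quantile-normalized levels and do not hold array by array. The limit on HOMO array 3 was 7.49, above the dimmer probe's WT mean of 7.44 and above the brighter probe on WT array 2 (7.22). Such levels, if unchanged, would have gone undetected on that array. The WT level of Tbx18, 5.99 ± 0.19 (SD, n = 4), lay below the average limit of 7.09. An unchanged level would also have gone undetected, so its call is not a measured fall and no fold or p is given for it.

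Of the 6 probes, 3 were called higher and 3 lower. Over all 21002 kept probes 73.3% were called, 24.8% higher and 48.5% lower, so calls in both directions were common in these data. Pax1, Scx and Mef2c belong to the 5101 probes detected on all 8 arrays, and of these 56.8% were called higher, with a median difference of +0.63.

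The direction of Pax1, Scx and Mef2c depended on how the arrays were brought to one scale. In the authors' normalized values their differences were -0.19 (adjusted p = 0.355), -0.94 (adjusted p = 0.00590) and -1.03 (adjusted p = 4.63e-04) by limma, and with each array centred on its median they were -2.96, -3.37 and -3.18. Dividing the background-corrected log2 values of each array in proportion to their median absolute value, here called median absolute value scaling, gave -2.27, -2.93 and -2.84. The study's methods name a scale normalization by median absolute deviation, which was not run. The median of all kept probes itself moved with the scaling. It was -0.56 in the quantile-normalized values, -1.83 in the authors' values, -2.26 with median centring and -2.08 with median absolute value scaling. Relative to that median, Pax1 stood at +2.38, +1.64, -0.70 and -0.19 in the same order of scalings, Scx at +1.92, +0.90, -1.11 and -0.85, and Mef2c at +1.64, +0.80, -0.92 and -0.76.

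The fitted differences of Prrx1 were negative under each of these scalings, with all its HOMO values under the detection limit. Its brighter probe differed by -2.16, -3.29, -3.53 and -3.28, or by -1.59, -1.45, -1.27 and -1.20 relative to the median of all kept probes, and its dimmer probe by -1.42, -1.39, -1.07 and -1.01 relative to that median. The fitted values of Tbx18, equally undetected in HOMO, were -1.34, -2.59, -1.81 and -1.69. Relative to the median of all kept probes it was -0.77 and -0.76 in the quantile-normalized and the authors' values. With median centring and median absolute value scaling it was +0.45 and +0.39.

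**Figure D3:**
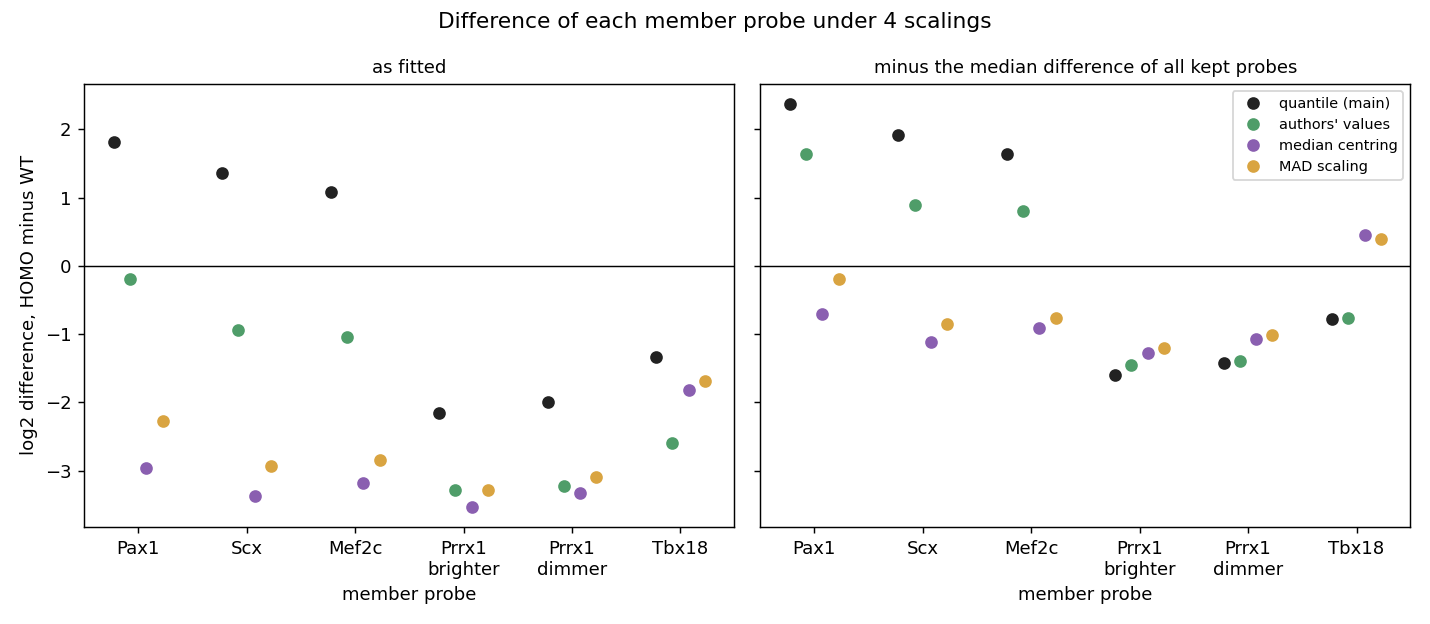
Log2 difference (HOMO minus WT, vertical axis) of each probe under 4 scalings of the arrays, as fitted on the left and after subtracting the median difference of all kept probes on the right. The label MAD marks median absolute value scaling. Pax1, Scx and Mef2c lie on both sides of 0 in both panels, both Prrx1 probes lie below 0 throughout, and Tbx18 changes side in the right panel only.

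A ratio of 2 probes on the same array also needs no scaling between arrays, and shows whether they changed unequally. All 3 pairs of the probes detected on every array were compared, a choice made after their values were seen. Pax1 over Mef2c was 4.83, 5.98, 5.47 and 5.59 on the WT arrays and 11.1, 9.32, 8.92 and 9.86 on the HOMO arrays. On the log2 scale this ratio rose from 2.45 ± 0.13 to 3.29 ± 0.14 (SD, n = 4), a difference of +0.84 with no overlap (exact permutation p = 0.0286, two-sided). Pax1 over Scx was 3.52, 3.63, 2.76 and 2.51 in WT and 5.43, 4.18, 5.49 and 5.60 in HOMO, a log2 difference of +0.75 (exact permutation p = 0.0286). Pax1 intensity thus fell less between groups than that of Scx or of Mef2c, whichever scaling is used for the levels. How many pairs of other probes separate in this way was not worked out. Pax1 was also the brightest of the 3, and the gap between groups differed with brightness. The highest intensity of an array was 40027.8 to 52596.6 in WT and 4016.5 to 8342.1 in HOMO. Whether the Pax1 ratios go beyond this was not tested. Scx over Mef2c was 1.37, 1.65, 1.98 and 2.23 in WT and 2.05, 2.23, 1.62 and 1.76 in HOMO. The groups overlapped, and the log2 difference of +0.10 did not pass (exact permutation p = 0.600), with a sign that turned to -0.03 without WT array 1.

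Mef2c intensities in HOMO were low enough for the background to matter. With every intensity raised by the noise SD of its array, the log2 difference of Pax1 over Mef2c was +0.61, and with every intensity lowered by it, +1.14. The difference of Pax1 over Scx was +0.63 and +0.88. Each kept its direction and an exact permutation p of 0.0286.

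**Figure D4:**
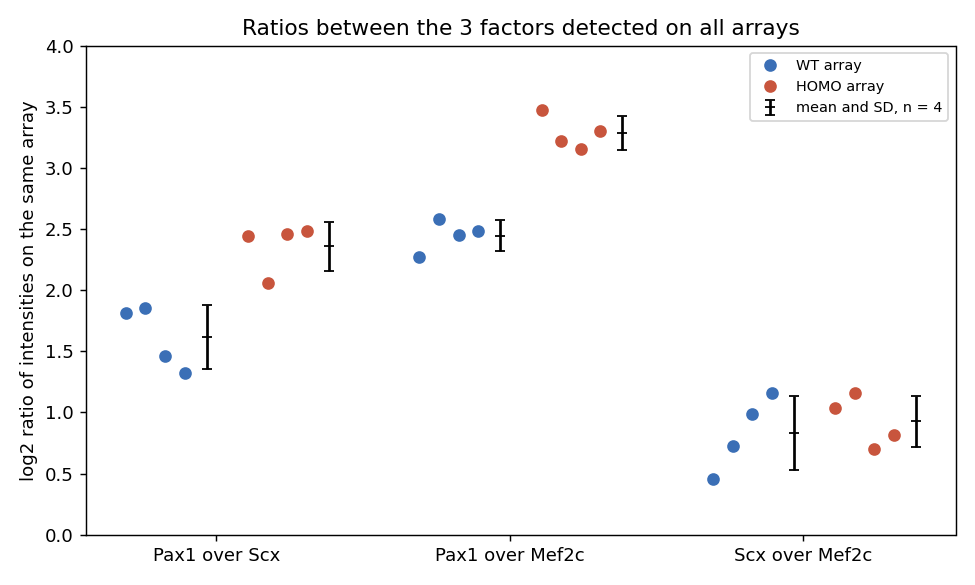
Log2 ratio of the intensities of 2 probes on the same array, for the 3 probes detected on all 8 arrays. Points are arrays and bars are the mean and SD of 4 arrays. The HOMO arrays lie above all WT arrays for Pax1 over Scx and Pax1 over Mef2c, and overlap them for Scx over Mef2c.

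The same ratios gave Prrx1 a bound that does not rest on normalization. The brighter Prrx1 probe stood at 0.703 to 0.8 of Mef2c on the WT arrays. Had that ratio been kept, at the WT mean, it would have read 13 to 17 on the HOMO arrays, above the lowest detected intensity on all 4. With Prrx1 set at the lowest detected intensity, its ratio to Mef2c was at most 0.356 to 0.482 in HOMO, below each WT value and at least 1.81-fold lower in the mean. Such bounds take the limit and the reading of the other factor as exact. They were not varied by the noise SD (3.95 to 4.8 on the HOMO arrays). Against Scx and Pax1 the brighter probe was at least 1.94-fold and 3.24-fold lower, and the dimmer probe was at least 1.55-fold, 1.64-fold and 2.76-fold lower against Mef2c, Scx and Pax1. All 6 bounds lay below the WT ratios on every HOMO array. At these bounds Prrx1 fell more than Pax1, Scx and Mef2c. Selection favoured this outcome, since Prrx1 was kept through the WT arrays alone and the genes it was compared with were detected on every array. Of the kept probes detected on all 4 WT arrays, 51.1% were detected on no HOMO array. How many of them would meet such bounds was not worked out.

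No such bound on a fall holds for Tbx18. At its WT ratio to Mef2c (0.147 to 0.302) it would have read 3.42 to 4.46 on the HOMO arrays, under the detection limit on all 4. At its ratio to Pax1 it would have passed the limit on 1 of 4. A Tbx18 transcript that kept pace with Mef2c would not have been detectable at this signal.

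Other genes of the same programs moved in both directions. Of the sclerotome and somite factors, Gli2, a transcriptional effector of hedgehog signals, differed by +0.40 (adjusted p = 0.0728, limma), and was called lower in the authors' values and with median centring. The median over all 4890 named genes was -0.62, with 2382 called lower and 1130 higher. Over all kept probes 70.6% were called lower in the authors' values and 87.8% with median centring, the background for each count of lower calls under those scalings.

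Of 4 mesenchyme factors, 2 were called lower and 1 higher, with a list median of -1.69. Zeb2, a zinc finger repressor, was at least 1.53-fold lower by its brighter probe, detected on no HOMO array. Its dimmer probe was called higher (+2.37) and was detected on only 1 WT and 2 HOMO arrays. Zeb1, its relative, was called lower and was detected on 1 HOMO array. No p is given for Zeb1, since detection in WT alone sufficed to keep it, which favours a lower call. Pbx3, a TALE homeobox cofactor, differed by -0.41 (adjusted p = 0.329). Shox2, a homeobox factor of limb and other mesenchyme, was called higher by 0.90 (adjusted p = 0.0247). In the authors' values and with median centring all 4 were called lower, as were most probes.

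T-box relatives were called in both directions, 3 of 4 higher. Tbx1 was higher by 2.4 on the probe with the higher level, which was detected on every array (106.8 to 183.9 in WT, 16.9 to 20 in HOMO), and lower by 0.68 on its other probe, detected on no HOMO array. Tbx4 and Tbx5, the limb T-box factors, were higher by 1.31 and 2.19, yet were detected on 1 and 2 HOMO arrays and had WT levels of 5.65 and 4.8, below the lowest detected level in HOMO. Eomes was called lower and was detected on no HOMO array. Its WT level of 6.955 lay below the average lowest detected level in HOMO (7.09), so no fall was measured. With median centring 3 of the 4 were called lower and none higher, and in the authors' values 1 each way.

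Of 12 kept genes of the tendon program, 6 were called lower and 4 higher, with a median of -0.61. Among the collagens Col3a1 was at least 12.48-fold lower and detected on no HOMO array. Col1a2, detected on 2 of 4 HOMO arrays (1.1 to 12.1), was called lower. Detection in WT alone sufficed to keep Col1a2, which favours a lower call, so no p is given for it. Col1a1, which forms the same type I fibrils as Col1a2, was higher by 1.36 (adjusted p = 0.0261), Col5a1 by 0.61 and Col6a1 by 0.69. Of the TGF-beta ligands, which induce Scx in tendon progenitors, Tgfb3 was higher by 2.04 (adjusted p = 2.99e-05) and Tgfb2 lower by 0.93 (adjusted p = 0.00133). Their receptor Tgfbr1 was lower by 0.59 on its brighter probe and higher by 1.75 on its dimmer one, and Tgfbr2 and Eya1 were lower without a fold bound. The small proteoglycan Dcn differed by -1.59 (adjusted p = 0.262) on its brighter probe and was at least 2.39-fold lower on the other, and Thbs2 differed by -0.37 (adjusted p = 0.542). With median centring all 12 were called lower, and 10 in the authors' values, with none higher in either, against the 87.8% and 70.6% of all kept probes.

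Of the E-protein and Id partners of basic helix-loop-helix factors such as Scx, Tcf12 was at least 4.36-fold lower, while Tcf4 (-0.44, adjusted p = 0.0588) and Id3 (-0.19, adjusted p = 0.556) did not pass. All 3 were called lower in the authors' values and with median centring, as were most probes. Of Mef2 relatives and partners, Mef2a and Sik3, a kinase that acts on the repressors of Mef2 factors, were lower without a fold bound. Runx2, the osteoblast factor (+1.52, adjusted p = 0.105), and Pth1r (adjusted p = 1) did not pass. The Runx2 probe was detected on only 1 WT and 2 HOMO arrays. Of 7 genes of hedgehog and BMP signalling, 4 were called lower and 1 higher. The 3 with the highest level were Smad4 (+0.06, adjusted p = 0.650), Bmpr1a (-2.14, adjusted p = 2.22e-04) and Smo, which was called lower but detected on only 1 HOMO array. No p is given for Smo, since detection in WT alone sufficed to keep it, which favours a lower call. Bmpr1a was detected on 3 HOMO arrays.

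Markers of other cell types that a sort of vertebral column could hold were summed as intensities (negative values set to 0). The neuron list (4 of 5 genes measured) summed to 4290, 5639, 1696 and 2096 on the WT arrays and to 33.6 to 36.6 in HOMO, and the neural progenitor list (3 of 4 genes) to 607.8, 933.1, 255.8 and 329.1 in WT and 0.60 to 6.30 in HOMO. WT array 2 was thus the highest for neural markers and the lowest for Mef2c and Prrx1 among the WT arrays, and the part of these markers in that result was not tested. Without WT array 2 the differences were +0.97 for Mef2c and -2.30 and -2.13 for the Prrx1 probes, all still called. The endothelial sum (3 of 6 genes) ran from 176.9 to 709.4 in WT and 21.2 to 41.8 in HOMO, the erythroid sum (3 of 4) from 2000 to 5934 and 26.0 to 650.6, the leukocyte sum (2 of 4) from 16.2 to 67.7 and 4.5 to 10, and the chondrogenic sum (4 of 7) from 21860 to 30650 and 65.1 to 159.8. The neural crest and glia list had 1 measured gene, detected on no array, and none of the 6 skeletal muscle genes listed had a named probe, so muscle cells, which also use Mef2c, could not be checked for.

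Genes with the most similar pattern over the 8 arrays were sought among 4885 named kept genes, by Pearson correlation of the normalized level. For Pax1 these were 1110008P14Rik (r = 0.998), Cel (r = 0.997) and Wnk4 (r = 0.997), for Scx Atp5j2 (r = 0.991), Nipbl (r = 0.989) and Igsf3 (r = 0.986), and for Mef2c Rad54l (r = 0.997), Lage3 (r = 0.994) and Rbfox2 (r = 0.994). For Prrx1 they were Adam19 (r = 0.992), Tars2 (r = 0.990) and Pik3r1 (r = 0.988), and for Tbx18 Ryr1 (r = 0.998), Cacna2d2 (r = 0.993) and Adh5 (r = 0.993). Such values were common, since the 8 arrays form 2 groups that differ for most probes. A correlation above 0.95 was reached by 549 genes for Pax1, 77 for Scx, 399 for Mef2c, 106 for Prrx1 and 865 for Tbx18.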

How the data were processed

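Total RNA of sorted cells was hybridised to Illumina WG-6 mouse arrays (v1.1 in the series text, v2.0 in the study's methods). The authors deposited background-subtracted intensity values from GenomeStudio, which can be negative, and a detection p-value column, read here as 1 minus p because it rises to 1 for bright probes. The authors' deposited normalized log2 values equalled log2 intensity, floored at 1, up to a constant per array and per probe. Probe names were joined through equal rows of values (38432 of 46643 probes); 82.6% of zero-padded numbers from 11000 upward were mouse gene identifiers. Spike-in controls (9) were left out.

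Normexp from the detection values, offset 16, quantile normalization, lmFit and eBayes were run in limma 3.58.1 (R 4.3.3), with ranks, ratios and figures in Python 3.11.15, scipy 1.17.1 and matplotlib 3.10.9. A probe was kept when its detection value passed 0.95 on at least 3 of 8 arrays. Calls needed a two-sided adjusted p of at most 0.05 (15398 probes), 14327 of them also with a fold of at least 1.5. Genes were represented by the kept probe of highest mean level. Noise SD was taken as the spread of intensity between detection values of 0.16 and 0.84, divided by 2. The number of arrays limits the precision. Only the model fit (lmFit and eBayes) was tested on simulated data, drawn from the WT means and spreads of the normalized levels. Background correction, normalization and the dimmer HOMO arrays were not part of that test. The members and lists were chosen with earlier results of these data known. Every member probe was named, every kept gene of 6 related lists (some listed genes are not reported here and were left out of the counts), up to 3 genes of highest level of the hedgehog and BMP list, and the 3 most similar genes to each member; markers of other cells are given as sums.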

Additional observations from a re-analysis of the deposited data

Results flagged for a closer look

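In 4 of 36 sets of 4 arrays examined, WT array 2 lay far from the other 3 arrays of its group by Dixon's criterion. For Mef2c its normalized log2 level was 7.66 (nearest other WT array 8.09) and its percentile rank 85.6 (nearest 88.2). For the brighter Prrx1 probe its level was 7.22 (nearest 7.77) and its percentile rank 82.7 (nearest 86.3). Chance flags about 1 in 20 such sets, and level and rank of a probe are not independent.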

How the results depend on the processing

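The choice of scaling decided the direction of 3 genes. Pax1, Scx and Mef2c, at +1.81, +1.36 and +1.08, turned to -0.19, -0.94 and -1.03 in the authors' values. They turned to -2.96, -3.37 and -3.18 with median centring and to -2.27, -2.93 and -2.84 with median absolute value scaling. Relative to the median of all kept probes they were -0.70, -1.11 and -0.92 with median centring and -0.19, -0.85 and -0.76 with median absolute value scaling. Tbx18 was +0.45 and +0.39 under these scalings. The cause was not tested. Both Prrx1 probes and Tbx18 were called lower under every alternative that gave them a value, which follows in part from their selection through WT arrays and their undetected HOMO values and is no sign of stability. The rank differences of Pax1, Scx and Mef2c kept their direction among the kept probes and with an array left out. The filter for detection on all 8 arrays leaves no value for Prrx1 and Tbx18. Calls over all probes were 15398, against 3683 of the fewer probes detected on all 8 arrays, and 14303 to 15592 with an array left out. Of these calls 33.9% were higher, against 18.1% in the authors' values, 4.3% with median centring and 5.3% with median absolute value scaling. Among probes detected on all 8 arrays, 78.6% of the calls were higher. Of 52 other listed genes, 15 were higher and 23 lower, against 7 higher and 35 lower in the authors' values. The counts were 1 higher and 46 lower with median centring and 1 higher and 45 lower with median absolute value scaling. With detection required on all 8 arrays they were 10 higher and 5 lower. Scx over Mef2c (+0.10) turned to -0.0195 with intensities raised by the noise SD and ran from -0.0275 to +0.205 with an array left out; the ratio settings were chosen after seeing the data. With the replicate number as a block, 14806 probes were called and all 6 member calls held; same-numbered arrays did not deviate together (correlations -0.033 to 0.028), so the numbers give no pairing. The methods' t-test, the 2-group form of their analysis of variance, called 15304 probes at an unadjusted p of at most 0.05 and 14721 after the Benjamini-Hochberg adjustment that they name.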
